A study of Mus musculus with 6 samples.

Results

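The regions described here are promoters at which a peak of accessible chromatin was called in both types of expanded potential stem cell (EPSC) but not in embryonic stem cells (ESCs). Peaks of the 3 deposited lists, with 28965 peaks for ESCs, 50225 for D-EPSCs and 46601 for L-EPSCs, were pooled on chromosomes 1 to 19 and X and merged where they overlapped by 1 bp or more, which gave 65518 regions. Of these, 12030 held a peak of both EPSC lists and none of the ESC list, and 2309 of the 12030 had their midpoint no more than 1 kb from where a protein-coding transcript starts. The 2309 promoters were 3.52% of all merged regions and 19.2% of the regions found in both EPSC lists only (95% interval 18.5 to 19.9). They were chosen by the presence and absence of peaks and by the distance to a start, so those values describe the choice and were not tested. Just inside the limit of 1 kb lay regions at Adrb1, Brwd3 and Atxn1, with midpoints 998, 999 and 1000 bp from a start. Just outside lay regions at Nefm, 2010305A19Rik and Prl2c3, at 1001, 1006 and 1007 bp.

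ATAC-seq was run on 6 libraries, 2 technical replicates for each of 3 states of J1 cells, a mouse ESC line of strain 129SV. ESCs grew on inactivated fibroblast feeders or on gelatin, in serum medium with LIF and the inhibitors CHIR99021 (of GSK3) and PD0325901 (of MEK). D-EPSCs were converted from them in N2B27 medium with KSR, LIF, CHIR99021, minocycline hydrochloride and dimethindene maleate. L-EPSCs were converted in DMEM/F12 medium with KSR, LIF, CHIR99021, PD0325901, XAV939, SB203580, A-419259 and JNK inhibitor VIII, and both EPSC types were kept without feeders before the assay. All 3 states therefore shared LIF and CHIR99021, and each was represented by a single cell line. The authors deposited a single list of peaks per state, which gives the start and end of each peak and neither a height nor a value per replicate. The sequencing depth behind each list is unknown, no test across replicates was possible, and the intervals given are 95% intervals that cover counting error only.

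In ATAC-seq the transposase Tn5 inserts adapters into DNA that is free of nucleosomes, and an active or poised promoter usually gives a peak over its transcription start. Many promoters of mammals lie in CpG islands, stretches that are rich in C, G and the dinucleotide CG and that tend to stay free of DNA methylation. Such promoters belong to housekeeping genes, which are open in nearly every cell type, and also to developmental regulators that Polycomb complexes hold in check in pluripotent cells. EPSCs are pluripotent cultures that were derived in search of cells able to contribute to embryonic and extraembryonic tissues.

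Stretches of 4 of the promoters are shown because they hold the RE1 motif bound by REST, a repressor of neuronal genes, which turned up in few promoters of either class compared below. Capitals mark the match to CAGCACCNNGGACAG or to its reverse complement, the build is mm9, and every sequence runs 5′ to 3′ along the strand of its gene. They stop at 30 bases where they lie in an untranslated region. Bdnf encodes a neurotrophin, Syp the synaptic vesicle protein synaptophysin, Npas4 a transcription factor induced by neuronal activity and Barhl1 a homeobox factor of neurons.
Bdnf (chr2:109516196-109516225, + strand): agtccattCAGCACCTTGGACAGagccagc
Syp (chrX:7215837-7215914, + strand): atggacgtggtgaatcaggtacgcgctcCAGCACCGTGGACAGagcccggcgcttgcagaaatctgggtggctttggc
Npas4 (chr19:4989127-4989211, - strand): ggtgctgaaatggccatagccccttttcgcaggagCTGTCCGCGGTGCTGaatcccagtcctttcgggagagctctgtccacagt
Barhl1 (chr2:28771703-28771732, - strand): gctgtcgCTGTCCGCGGTGCTGaggcctcc

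The next 4 are the 200 bp before the start of genes that stand for the range of CpG content among these promoters, with each CG in capitals. Nanog encodes a pluripotency factor, Cdx2 a regulator of trophectoderm, Gata4 a regulator of primitive endoderm and Plxnc1 a semaphorin receptor. Nanog had 1 CG in this stretch, Cdx2 10, Gata4 22 and Plxnc1 37.
Nanog (chr6:122657307-122657506, + strand): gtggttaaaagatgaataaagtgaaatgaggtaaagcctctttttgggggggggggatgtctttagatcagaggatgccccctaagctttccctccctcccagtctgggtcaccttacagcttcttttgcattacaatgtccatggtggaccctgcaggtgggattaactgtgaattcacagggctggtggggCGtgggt
Cdx2 (chr5:148118847-148119046, - strand): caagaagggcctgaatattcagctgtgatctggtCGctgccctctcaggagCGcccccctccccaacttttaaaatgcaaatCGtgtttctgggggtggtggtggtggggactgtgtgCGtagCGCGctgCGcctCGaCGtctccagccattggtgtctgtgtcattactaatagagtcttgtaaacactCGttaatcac
Gata4 (chr14:63864109-63864308, - strand): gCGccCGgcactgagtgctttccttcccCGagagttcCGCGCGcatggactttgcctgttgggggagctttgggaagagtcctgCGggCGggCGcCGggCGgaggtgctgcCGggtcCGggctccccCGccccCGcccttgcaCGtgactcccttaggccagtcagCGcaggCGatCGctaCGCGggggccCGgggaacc
Plxnc1 (chr10:94407213-94407412, - strand): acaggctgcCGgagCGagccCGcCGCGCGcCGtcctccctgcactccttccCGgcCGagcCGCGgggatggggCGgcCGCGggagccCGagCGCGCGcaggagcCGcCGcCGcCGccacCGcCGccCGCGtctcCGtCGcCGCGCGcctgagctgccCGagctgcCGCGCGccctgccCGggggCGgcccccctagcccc

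The last 4 show motifs on which the comparison with constitutively open promoters turned, and a retinoic acid response type of repeat at the gene of a retinoic acid receptor. Capitals mark the NRF1 motif GCGCATGCG in Cox6c, a subunit of cytochrome c oxidase, the YY1 motif AAGATGGCG in Rpl23a and the ETS motif CCGGAAGT in Rpl19, both ribosomal protein genes, each on either strand. In Rara they mark the RAR-RXR direct repeat.
Cox6c (chr15:35867924-35867953, - strand): atcgactcttGCGCATGCGtgctgctggaa
Rpl23a (chr11:77997029-77997058, - strand): cttttcagccAAGATGGCGccgaaagcgaa
Rpl19 (chr11:97887949-97888023, + strand): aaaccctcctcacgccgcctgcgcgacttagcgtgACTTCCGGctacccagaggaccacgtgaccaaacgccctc
Rara (chr11:98821287-98821373, + strand): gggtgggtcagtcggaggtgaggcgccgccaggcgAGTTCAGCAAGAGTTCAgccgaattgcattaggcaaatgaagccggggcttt

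The 2309 regions lay at the starts of 2329 coding genes, 10.4% of the 22348 annotated (10.0 to 10.8). Of these genes, 1860 had no ESC peak that reached within 1 kb of any of their annotated starts, noncoding transcripts included, which was 79.9% of them (78.2 to 81.4) and 8.32% of all coding genes. The other 469 had an ESC peak within that distance of an annotated start, outside the region itself. Of the 469, 89.1% had 2 or more coding starts, compared with 53.8% of the 1860. By peaks at any annotated start alone, 2032 genes (9.09%) had peaks in both EPSC lists and none of ESCs, and 66 (0.295%) had an ESC peak and no EPSC peak, in a series whose ESC list is the shortest.

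Peaks sat on the transcription start itself. A region covered the nearest start in 81.8% of cases (80.2 to 83.3), compared with 95.9% of the 10410 promoters with a peak in all 3 lists, 48.2% of the 1263 in D-EPSCs only and 30.4% of the 513 in L-EPSCs only. The median midpoint was 40 bp downstream of the start (31 to 48), close to the 31 bp of promoters with peaks in all 3 lists, and 59.5% of midpoints were downstream. At their midpoints, 31.6% of the regions lay in an untranslated region, 28.0% in an intron, 16.1% in a coding exon and 24.3% upstream of or between coding transcripts. Base by base, D-EPSC peaks covered 80.3% and L-EPSC peaks 70.4% of these starts, while ESC peaks covered 0.693%, at starts beside a region with an ESC peak of its own. The plot of coverage around the start shows the same centred shape for both EPSC lists.

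**Figure D1:**
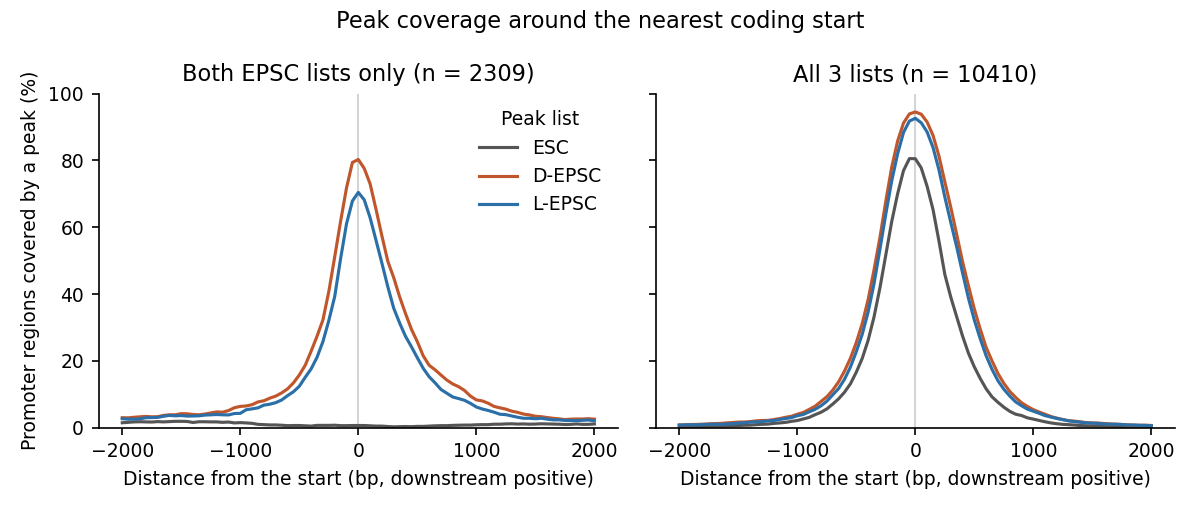
Share of promoter regions (%, y axis) covered by a peak of each list at each distance in bp from the nearest coding start (x axis, downstream positive), for promoters with peaks in both EPSC lists only (left, n = 2309) and in all 3 lists (right, n = 10410). On the left D-EPSC and L-EPSC coverage reaches 80.3% and 70.4% at the start and ESC coverage 0.693%, whereas on the right the 3 lists reach 94.5%, 92.6% and 80.5%.

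The distance to ESC peaks is a description, since the choice required that none lie in the region. The nearest ESC peak was a median of 11830 bp away (11158 to 12649). It lay within 100 bp of 9 regions (0.390%), within 500 bp of 30 (1.30%) and within 1 kb of 167 (7.23%). No ESC peak lay within 50 kb of 334 regions (14.5%). The region near the starts of Inha, which encodes the alpha subunit of inhibin, and Obsl1 was the closest case among the genes named here, with an ESC peak 8 bp away, and that of Lrat, an enzyme of retinol storage, followed with 85 bp.

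Peaks in these promoters were narrower than in promoters open in all 3 states and wider than in promoters of a single EPSC list. The median width was 515 bp for D-EPSC peaks (495 to 530) and 414 bp for L-EPSC peaks (397 to 427), compared with 770 and 721 bp where all 3 lists had a peak. Promoters found in D-EPSCs only had a median of 261 bp and those in L-EPSCs only of 214 bp. A region held 1 D-EPSC peak and 1 L-EPSC peak in 95.3% of cases. Width comes from the same peak calls as the choice of regions, so the order of these medians is a description.

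**Figure D2:**
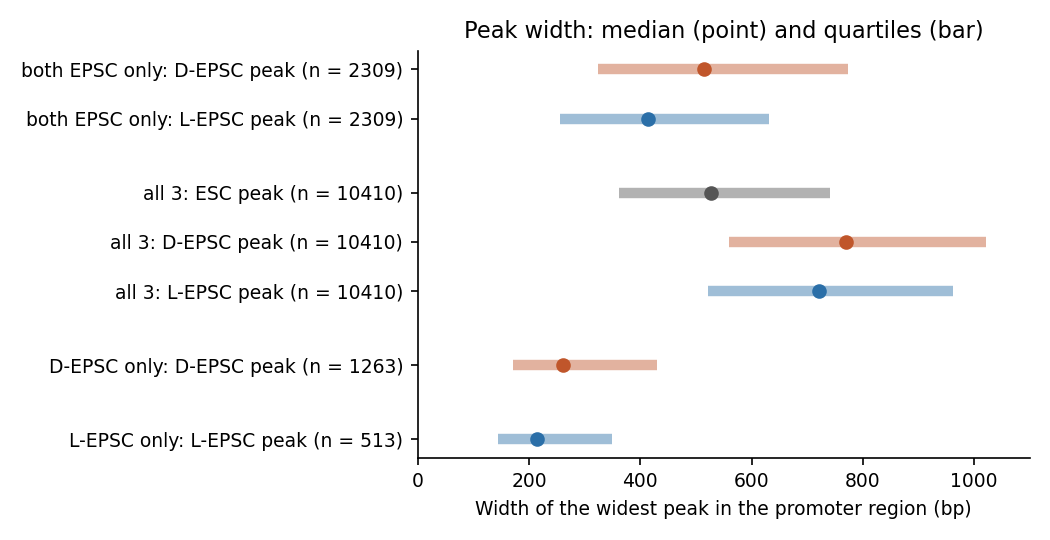
Width in bp (x axis) of the widest peak of a list in each promoter region, as the median (point) and the interquartile range (bar), by class of promoter and peak list. Promoters of both EPSC lists only, at medians of 515 and 414 bp, sit between those of all 3 lists (770 bp for D-EPSC, 721 for L-EPSC and 527 for ESC peaks) and those of 1 EPSC list (261 and 214 bp).

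The D-EPSC peak was the wider of the pair in 65.5% of the regions (63.6 to 67.4), with a median ratio of D-EPSC to L-EPSC width of 1.19 (1.15 to 1.22). That ratio was 1.04 in promoters with peaks in all 3 lists and 1.03 in the 9721 regions of both EPSC lists away from promoters. Across the 2309 regions the widths in the EPSC lists had a Spearman correlation of 0.528, compared with 0.719 across promoters of all 3 lists. The points of these correlations share their libraries. Of the D-EPSC peaks of the set 77.5% and of the L-EPSC peaks 70.6% were among the 28965 widest of the list, the length of the ESC list. Such a limit keeps most of all peaks too, since the whole lists held 50225 and 46601. By width the peaks of the set stood at a median percentile of 66.3 in the D-EPSC list and 57.0 in the L-EPSC list.

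The 10 widest regions spanned 2017 bp or more. At Nr3c1, the glucocorticoid receptor gene, the merged region spanned 2850 bp, with a widest D-EPSC peak of 1858 bp and a widest L-EPSC peak of 1470 bp. At Bend3, which encodes a BEN domain repressor bound to heterochromatin, peaks of 2474 and 2382 bp nearly coincided. The remaining regions were at Slc35d3 (2544 bp), 8430427H17Rik (2442 bp), Mpp2 (2310 bp), Gm5069 (2114 bp), Shisa6 (2089 bp), A930038C07Rik (2064 bp), Plxnc1 (2030 bp) and Card10 (2017 bp), the last tied with Tmem181b-ps. Mpp2 encodes a synaptic scaffold protein, Shisa6 a partner of glutamate receptors and Card10 a scaffold of NF-kB signalling. Mpp2 also had an ESC peak at an annotated start, and the other 9 of the first 10 had none.

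Genes with several such regions were rare. Rara, whose product is a nuclear receptor for retinoic acid, had 4, all in introns and none with an ESC peak at any start of the gene. Its widest region, chr11:98820800-98821880 in mm9, held a D-EPSC peak of 1081 bp and an L-EPSC peak of 855 bp. Ptch1, the receptor for Hedgehog ligands, Pax6, a homeobox regulator of eye and brain, and Por, the electron donor of cytochrome P450 enzymes, had 3 each, and Pax6 and Por also had an ESC peak at an annotated start. A single region marked 2226 of the genes, and 99 had 2.

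Pluripotency genes were present in the set. Of 34 genes of core and naive pluripotency, 9 had such a region (26.5%, interval 14.6 to 43.1), compared with 10.4% of all coding genes. An ESC peak was at no start in 5 of the 9, or 14.7% of the list (6.45 to 30.1), an interval that includes the 8.32% of all coding genes. At Nanog the region chr6:122657219-122657653 held a D-EPSC peak of 435 bp and an L-EPSC peak of 238 bp over the start. ESCs had no peak there and a peak of 729 bp farther upstream, from -4987 to -4259 bp, where both EPSC lists had a peak too. With lists limited to their 28965 widest peaks Nanog was no longer in the set, and 4 of the 9 genes were, compared with 63.2% of all genes of the set. Nr0b1, which encodes the Oct4 partner Dax1, had peaks of 970 and 580 bp and no ESC peak within 414605 bp. Dppa2, a chromatin factor of early embryos, had peaks of 542 and 511 bp with an ESC peak 819 bp away. Sall4, Esrrb and Myc, all transcription factors of ESCs, had regions of 901, 575 and 559 bp but also an ESC peak at an annotated start.

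The labelled cell type was checked by whether markers of pluripotent cells had a peak at a start. All 8 did in both EPSC lists and 6 of 8 in ESCs, the exceptions being Nanog and Tdgf1, a Nodal coreceptor, both of them in the set. Esrrb is a marker in the set too. The choice fixed the EPSC peaks of these genes, so the counts repeat it in part. Genes of the formative and primed states, which follow naive pluripotency, had a region in 7 of 25 cases. This was 28.0% (14.3 to 47.6), compared with 10.4% of all coding genes. Foxd3, a repressor at the exit from naive pluripotency, had a D-EPSC peak of 1581 bp and an L-EPSC peak of 582 bp. For Pou3f1 the widths were 748 and 712 bp, and for Otx2, which directs Oct4 to new enhancers, 850 and 239 bp. Dnmt3a, a de novo DNA methyltransferase, had 813 and 163 bp, and the gene also had an ESC peak at an annotated start. Of 23 genes of DNA methylation it and Zbtb38 had a region, and neither lacked an ESC peak at every start.

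Primitive endoderm regulators had the highest share of the 31 gene lists. A region marked 11 of 24 (45.8%, 27.9 to 64.9), compared with 10.4% of all coding genes, and all 11 had an ESC peak at no start. Among genes with a peak of any list at a start the share was 57.9%, compared with 15.9% of all such genes. Gata4, at chr14:63863964-63864977, had a D-EPSC peak of 1014 bp and an L-EPSC peak of 319 bp, and ESCs had a peak of 490 bp between 4445 and 4934 bp downstream, overlapped by a peak of each EPSC list. Gata6, the factor that starts this lineage, had 581 and 424 bp, with the nearest ESC peak 166170 bp away. Other genes with a wide region were Fst, an activin antagonist (976 and 417 bp), the basement membrane genes Col4a1 and Col4a2, which share a region (870 and 615 bp), and Lamb1 (554 and 503 bp). Of these 11 genes, 10 stayed in the set when each list was limited to its 28965 widest peaks, compared with 1471 of all 2329 genes (63.2%). Markers of the lineage with a peak at a start numbered 4 of 5 in the D-EPSC list, 3 in the L-EPSC list and 1 in the ESC list. Gata4 and Gata6, both in the set, are among these markers, so the counts repeat in part what chose the regions. A bulk assay does not tell a few cells with an open promoter from a slight opening in all.

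Trophoblast genes had a region in 7 of 25 cases (28.0%, 14.3 to 47.6), of which 5 had no ESC peak at any start (20.0%, 8.86 to 39.1). For all coding genes the shares were 10.4% and 8.32%. Cdx2 had a D-EPSC peak of 667 bp and an L-EPSC peak of 653 bp at chr5:148118083-148119009, and the ESC peak of the locus, 779 bp wide, lay 2132 to 2910 bp downstream, where both EPSC lists had a peak too. Peaks at Tcfap2a, which encodes an AP-2 factor, were 968 and 221 bp wide. Narrower peaks marked Ascl2, a factor needed for the placenta (235 and 310 bp), Bmp4 (259 and 300 bp) and Tcfap2c (310 and 148 bp). With each list limited to its widest peaks 1 of the 7 remained, compared with 63.2% of all genes of the set. Tcfap2c also had an ESC peak at an annotated start. Of 5 trophoblast markers 3 had an ESC peak at a start and 4 a peak in each EPSC list, the difference being Cdx2, itself in the set. Peg10, an imprinted gene of placental development, shared its region of 719 bp with Sgce.

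The plot of 8 loci shows where the peaks of each list fall around such starts.

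**Figure D3:**
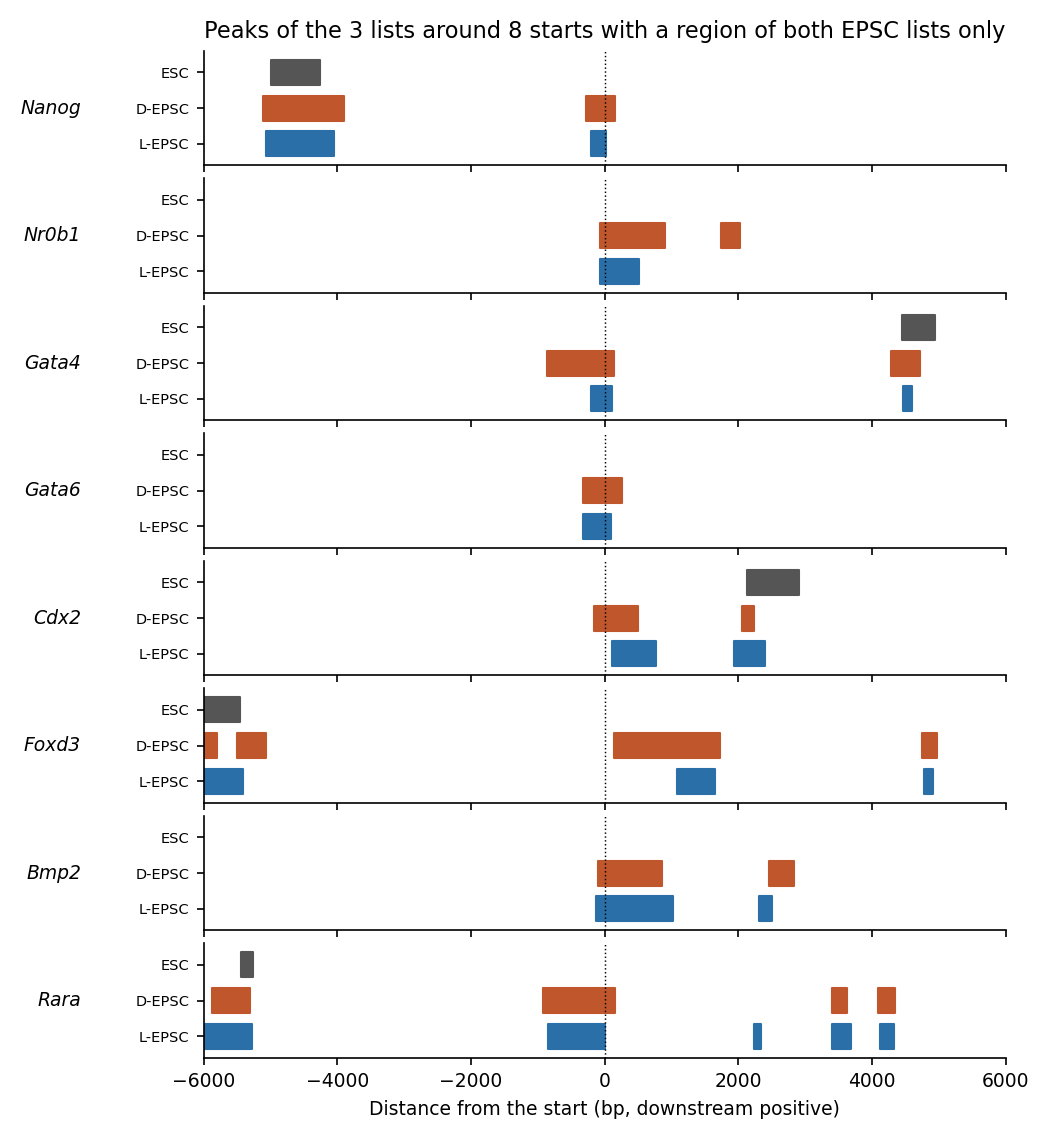
Peaks of the ESC, D-EPSC and L-EPSC lists (bars to scale) at distances of up to 6000 bp from 8 transcription starts (x axis in bp, downstream positive; dotted line, the start). ESCs have a peak elsewhere in the window at Nanog, Gata4, Cdx2, Foxd3 and Rara and none in it at Nr0b1, Gata6 and Bmp2. At the first 5 both EPSC lists have a peak that overlaps it.

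Regulators of gastrulation and of neural fate were present too. For comparison, 10.4% of all coding genes had a region and 8.32% had one with no ESC peak at any start. Of 34 gastrulation and mesendoderm genes 11 had a region (32.4%, 19.1 to 49.2), all with an ESC peak at no start. They included Gata5 (a D-EPSC peak of 972 bp and an L-EPSC peak of 682 bp), Hand2 (879 and 790 bp), Foxc1 (330 and 639 bp), Foxc2 (857 and 165 bp) and Twist1 (1172 and 265 bp), transcription factors of heart and mesoderm. Foxh1, a partner of Smads, had peaks of 526 and 144 bp. Among 129 homeobox and neural lineage factors 45 had a region (34.9%, 27.2 to 43.4), 37 of them without an ESC peak at any start. Peaks at Zic1 were 1776 and 747 bp wide, at Lhx4 1459 and 1358 bp and at Sox9 1374 and 346 bp. At Zic1 and Sox9, as at Gata4 and Twist1, the D-EPSC peak was by far the wider, and at Lhx4 the widths were close.

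Hox genes, which pattern the body axis, had a region in 8 of 39 cases (20.5%, 10.8 to 35.5). Hoxd8 had peaks of 1306 and 692 bp and Hoxd13 of 740 and 910 bp. Hoxb9 had a D-EPSC peak of 152 bp and an L-EPSC peak of 1391 bp. Genes of Polycomb complexes themselves, which keep such promoters repressed, had a region in 5 of 38 cases (13.2%, 5.75 to 27.3), near the 10.4% of all coding genes. Those without an ESC peak at any start were 2 of 38 (5.26%), among them Pcgf2 (492 and 920 bp).

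Signalling genes with a region included ligands, receptors and antagonists. In the TGF-beta, Nodal and BMP list 15 of 71 genes had a region (21.1%, 13.2 to 32.0), compared with 10.4% of all coding genes. The ligand gene Bmp2 had a D-EPSC peak of 968 bp and an L-EPSC peak of 1155 bp, with no ESC peak within 61555 bp. The antagonists Chrd and Grem1 had 887 and 666 bp, and 508 and 961 bp, in the same order. In the Wnt list 17 of 75 genes had a region (22.7%, 14.7 to 33.3). Wnt5b, a ligand whose gene also had an ESC peak at an annotated start, had peaks of 1164 and 1275 bp, Ryk, a receptor, of 913 and 1011 bp, and Tcf7, a nuclear effector, of 999 and 449 bp. Secreted antagonists of the Sfrp family appeared 3 times among the widest of the list, as Sfrp4 (1017 and 715 bp), Sfrp5 (542 and 870 bp) and Sfrp2 (617 and 494 bp).

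The retinoic acid list had a region at 7 of 37 genes (18.9%, 9.48 to 34.2), an interval that includes the 10.4% of all coding genes. Genes with a region and no ESC peak at any start were 5 of 37 (13.5%, 5.91 to 28.0), compared with 8.32% of all coding genes. Besides Rara the 7 genes included the receptor gene Rarg (1153 and 1059 bp), which has an ESC peak at an annotated start. Dhrs3, a retinal reductase, had 759 and 556 bp and Stra6, the receptor for retinol uptake, 556 and 561 bp. FGF and MAPK genes followed with 10 of 65 (15.4%, 8.58 to 26.1), among them the receptor genes Fgfrl1 (711 and 1108 bp) and Fgfr3 (857 and 659 bp). Notch genes had 5 of 35 (14.3%, 6.26 to 29.4), with the ligand gene Dll1 at 1234 and 161 bp, and Hedgehog genes 2 of 19 (10.5%, 2.94 to 31.4). The intervals of the FGF and MAPK, Notch and Hedgehog lists all include the 10.4% of all coding genes.

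Neuronal genes of the RE1 type, a list of REST targets from general knowledge, had a region in 16 of 68 cases (23.5%, 15.0 to 34.9). The share of all coding genes was 10.4%. Pcsk2, a prohormone convertase, had peaks of 1139 and 696 bp and Cplx1, a regulator of vesicle fusion, of 1099 and 740 bp. Syp, whose RE1 match is printed above, had 534 and 446 bp, and Npas4 had 228 and 279 bp. Axon guidance genes had a region in 18 of 67 cases (26.9%, 17.7 to 38.5), including the ephrin receptor gene Ephb2 (1313 and 1184 bp) and the netrin genes Ntn1 (1179 and 644 bp) and Ntn4 (1364 and 175 bp). Ntn1 also had an ESC peak at an annotated start, as did Bdnf.

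Mesenchymal genes need a value beside them, because feeder cells are fibroblasts. Of the 30 listed, 9 had a region (30.0%, 16.7 to 47.9), compared with 10.4% of all coding genes. Zeb1 had peaks of 1496 and 1495 bp and Zeb2 of 1638 and 421 bp, both repressors active in mesenchyme. Col1a1, the main collagen of fibroblasts, had a D-EPSC peak of 522 bp and an L-EPSC peak of 992 bp. Of 8 fibroblast markers 4 had a D-EPSC peak at a start (Col1a1, Col1a2, Thy1 and Twist1), 2 an L-EPSC peak (Col1a1 and Twist1) and 1 an ESC peak (Thy1). Col3a1, Postn, Lum and Dcn had none in any list, and the part of feeder cells in the result was not tested. Col1a1 and Twist1 are in the set, which fixes their peaks in both EPSC lists. Genes of epithelial junctions and keratins had a region in 8 of 43 cases (18.6%, 9.74 to 32.6), with Epcam, an adhesion molecule of ESCs, at 1387 and 445 bp.

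Imprinted genes, expressed from a single parental allele, had a region in 13 of 42 cases (31.0%, 19.1 to 46.0), compared with 10.4% of all coding genes. The peaks were mostly narrow, and 2 of the 13 remained when each list was limited to its widest peaks, compared with 63.2% of all genes of the set. Mkrn3 had 629 and 513 bp, Plagl1, a zinc finger gene, 634 and 271 bp and Mest 436 and 245 bp. Germline and meiosis genes had 7 of 42 (16.7%, 8.32 to 30.6), an interval that includes the 10.4% of all coding genes. All 7 were without an ESC peak at any start. Sycp3, of the synaptonemal complex, had 1233 and 511 bp and Dmc1, a meiotic recombinase, 949 and 552 bp.

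Housekeeping lists stood near or under the share of all genes. Translation initiation genes had a region in 3 of 48 cases (6.25%) and genes of the TCA cycle and respiration in 2 of 44 (4.55%, 1.26 to 15.1), where 93.2% had a region with peaks in all 3 lists. Symbols starting with Rpl or Rps, a few of which are not ribosomal proteins, had 16 of 150 (10.7%), led by Rpl4 with peaks of 1141 and 809 bp. Glycolysis genes had 5 of 39 (12.8%), of which 1, the enolase gene Eno2 (382 and 1132 bp), lacked an ESC peak at every start. Zinc finger genes named Zfp had 39 of 367 (10.6%) and replication-dependent histone genes 10 of 66 (15.2%). The 2-cell stage list had 1 of 14, the homeobox gene Lmx1a, clustered protocadherins had 1 of 24, olfactory receptors 2 of 1113 (0.180%) and vomeronasal receptors 1 of 327. In all, 24 of the 31 lists exceeded the 10.4% of all coding genes. Some did so by little, such as Hedgehog (10.5%), Zfp (10.6%) and Rpl or Rps genes (10.7%). Of genes with a peak of any list at a start, 15.9% had a region. Among such genes most lists exceeded that share too. Those that did not included Hedgehog (12.5%), Zfp (13.0%), Polycomb (13.5%), Notch (14.7%) and glycolysis genes (15.2%).

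With each peak list limited to its 28965 widest peaks, 63.2% of all 2329 genes stayed in the set. Of the 45 homeobox and neural genes 24 stayed, of the 11 gastrulation genes 5, of the 8 Hox genes 4 and of the 7 formative and primed genes 4. In the signalling lists 9 of 17 Wnt genes, 9 of 15 TGF-beta, Nodal and BMP genes, 8 of 10 FGF and MAPK genes, 5 of 7 retinoic acid genes and 2 of 5 Notch genes stayed. The counts were 10 of 16 for neuronal genes, 10 of 18 for axon guidance, 6 of 9 for mesenchymal genes, 7 of 8 for epithelial genes and 5 of 7 for germline genes. Genes described above that did not stay included Twist1, Foxc2, Foxh1, Otx2, Dnmt3a, Esrrb, Tcfap2a, Hoxb9, Dll1, Ntn4 and Npas4. The lists were chosen with results of these data known and share some genes, and no test of them was made.

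**Figure D4:**
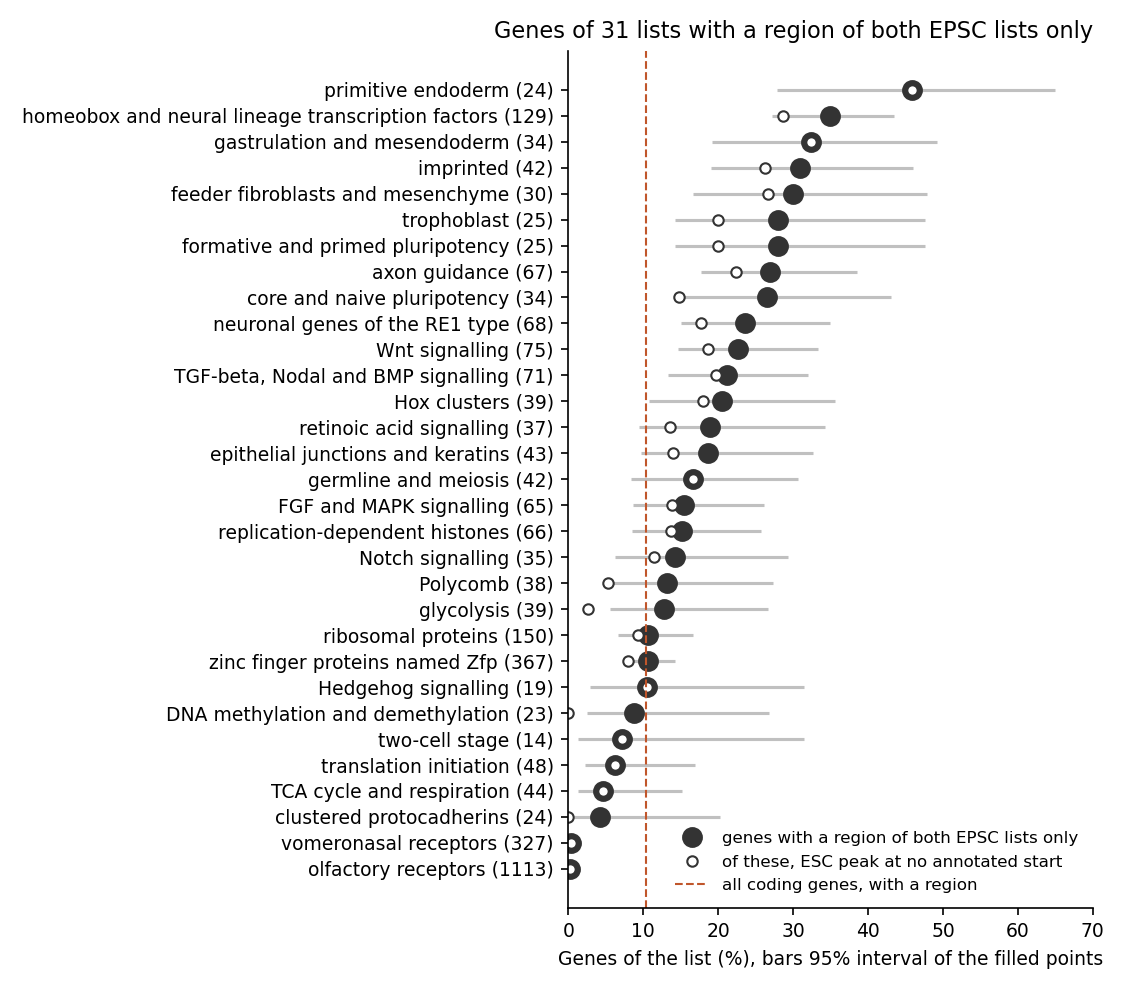
Share of the genes of each list (%, x axis; number in the annotation in brackets) with a promoter region of both EPSC lists only (filled points, bars 95% intervals) and with, in addition, an ESC peak at no annotated start (small open points). The dashed line is the 10.4% of all coding genes, and the primitive endoderm list at 45.8% and the homeobox and neural list at 34.9% lie farthest to its right.

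The base composition of the promoters, which the choice did not use, lay close in GC content to that of promoters with peaks in all 3 lists and was poorer in CpG. In 400 bp around the midpoint the median GC content was 65.0% (64.5 to 65.5), compared with 66.0% where all 3 lists had a peak. The median ratio of observed to expected CG dinucleotides was 0.726 (0.711 to 0.740) and 0.822, respectively. Regions with a GC content of 55% or more and a ratio of 0.6 or more, called CpG-rich here, made up 64.3% of the promoters (62.3 to 66.2) and 79.5% of those of all 3 lists, a difference of -15.1 percentage points (-17.3 to -13.1). Promoters of a single EPSC list were far less often CpG-rich, at 394 of 1263 (31.2%) in D-EPSCs only and 128 of 513 in L-EPSCs only. Among all 45947 coding starts the share was 45.3%. With the lists limited to their widest peaks, the difference from promoters of all 3 lists was -7.99 points (-10.5 to -5.64).

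The set held promoters of both kinds, as the stretches at Nanog and Plxnc1 show. The 1485 CpG-rich regions were a median of 688 bp wide and covered the start in 86.8% of cases. The other 824 had a median of 492.5 bp and covered it in 72.8%. An ESC peak at an annotated start of the gene, outside the region, was less frequent for the first kind, at 16.7% (14.9 to 18.7), than for the second, at 27.1% (24.1 to 30.2). Across the 2309 regions the merged width had a Spearman correlation of 0.340 with GC content, given as a description.

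Motifs of factors that act at housekeeping promoters were less frequent than in promoters of all 3 lists. In all, 19 consensus motifs were searched without mismatch on both strands in the same 400 bp. A match is a description of the letters and not of binding. The ETS motif occurred in 4.46% of the promoters and in 7.56% of those of all 3 lists (difference -3.10 points, -4.03 to -2.06). For YY1 the shares were 1.91% and 4.05% (-2.77 to -1.41), and for NRF1 1.39% and 3.24% (-2.39 to -1.20). ZNF143 and Ronin share the motif ACTACANNTCCCAG, found in 0.736% and 1.93% (-1.59 to -0.690). The share of all coding starts with these motifs was 5.02%, 2.44%, 2.12% and 1.28%. In promoters of D-EPSCs only the shares were lower than in the set, at 1.19%, 0.238%, 0.238% and 0.158%. In those of L-EPSCs only they were 2.14%, 0.195%, 0.585% and 0.780%, lower but for the last. The letters CCAAT, bound by NF-Y, were in 30.1% and 36.2% (-8.14 to -3.97) and in 40.0% of all coding starts. For D-EPSCs only and L-EPSCs only CCAAT was in 34.0% and 32.4%. All 5 differences from promoters of all 3 lists had an interval below 0 also with a window of 1000 bp, with the widest peaks and among CpG-rich regions only. Reversed letters keep the base composition but not always a CG dinucleotide. Those of ETS were in 1.34% and 1.44%, a difference of -0.0983 points (-0.565 to 0.497). The ETS motif holds a CG and its reversed letters hold none. They are therefore no control for the difference in CpG content between the classes. The reversed letters of CCAAT differed by 1.95 points in the opposite direction. The reversed letters of YY1 (0.173% and 0.134%), NRF1 (0.0433% and 0.0961%) and ZNF143 (0 in both classes) were too rare to serve as a control.

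The AP-1 motif TGANTCA was more frequent in these promoters than in those of all 3 lists, at 5.85% and 4.23% (0.647 to 2.72). It was in 7.62% of all coding starts. The share was higher still in promoters of D-EPSCs only (8.16%), of L-EPSCs only (9.36%) and with an ESC peak but not all 3 (7.59%). The interval of the difference lay above 0 in 1000 bp, with the widest peaks and among CpG-rich regions, and across 0 for the reversed letters. Over whole merged regions, with median lengths of 620 and 886 bp, the motif was not the more frequent, at 10.5% and 10.9%. The GC box GGGCGG was in 69.2% and 76.3% (49.5% of all coding starts), but its reversed letters differed as much, by -7.17 points. The GC box difference was -3.11 points (-5.58 to -0.757) with the widest peaks and -0.834 (-3.01 to 1.20) among CpG-rich regions. The reversed letters of REST were in 0 promoters of either class, so they give no control. REST matches were in 10 of the 2309 promoters (0.433%), in 16 of the 10410 (0.154%) and in 0.0588% of all coding starts, a difference of 0.279 points (0.0597 to 0.646). CTCF matches were in 50 (2.17%) and 124 (1.19%) and in 1.07% of all coding starts. The octamer ATGCAAAT of POU factors was in 1.52% and 1.03%, and in 1.54% of all coding starts. The intervals for REST, CTCF and the octamer spanned 0 with the widest peaks, with 1000 bp and among CpG-rich regions.

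Motifs for retinoic acid receptors did not separate from their reversed letters. The receptor hexamer AGGTCA, which is also part of the longer Esrrb motif and may be part of the direct repeat, was in 15.8% and 12.6% (17.9% of all coding starts), and its reversed letters differed by 2.76 points against 3.13. The RAR-RXR direct repeat, of which Rara holds a match 396 bp upstream of a start, was in 0.433% and 0.403% (0.470% of all coding starts) with an interval that spanned 0. The Zfp281 motif CCCCTCCCC was in 12.6% and 10.2% (8.62% of all coding starts), and because it reads the same reversed it has no such control. Among CpG-rich regions the intervals of the Zfp281 motif and of AGGTCA spanned 0. The TCF/LEF motif ATCAAAG was in 2.73% and 1.87% (3.69% of all coding starts), with an interval that spanned 0 among the widest peaks and in CpG-rich regions, where that of the CRE TGACGTCA, at 2.25% and 3.04% (2.17% of all coding starts), did so too. Over whole merged regions the Zfp281 motif (20.6% and 21.1%), AGGTCA (25.9% and 31.1%) and TCF/LEF (4.16% and 5.52%) were not the more frequent. The intervals of the AP-2 motif GCCNNNGGC (40.4% and 40.3%, 27.6% of all coding starts), the E-box CACGTG (9.66% and 10.6%, 8.69%), the E2F motif TTTCCCGC (53 of 2309 and 2.59%, 1.73%) and the Esrrb motif TCAAGGTCA (0.217% and 0.327%, 0.431%) spanned 0. For AP-2 the difference turned with the setting, at 4.77 points with the widest peaks, 5.43 in CpG-rich regions and -2.59 in 1000 bp, with intervals on 1 side of 0 each time, and for E2F it was -1.21 (-2.13 to -0.167) in 1000 bp. Of the 19 motifs 7 had an interval above 0, 7 below and 5 across it.

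**Figure D5:**
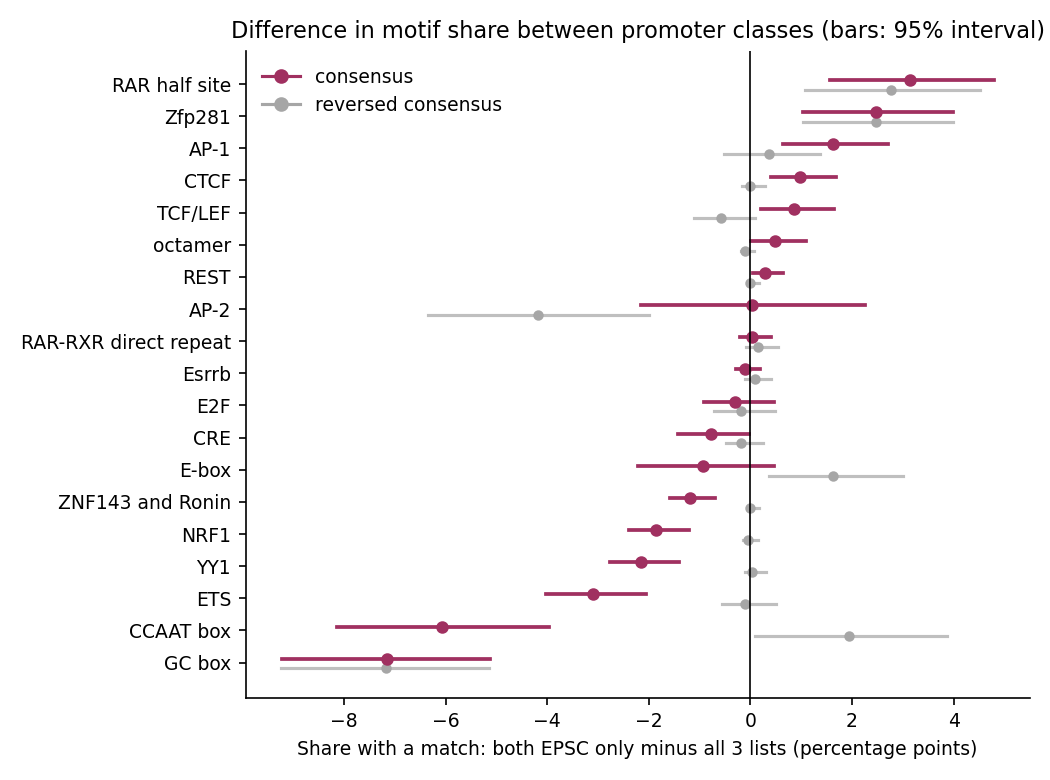
Difference in the share of promoters with a motif match between both EPSC lists only (n = 2309) and all 3 lists (n = 10410), in percentage points (x axis), for 19 motifs (red) and their reversed letters (grey), with 95% intervals as bars. ETS (-3.10), YY1, NRF1 and ZNF143 lie below 0, the reversed letters of the last 3 are too rare to compare, and the GC box moves with its reversed letters (-7.15 and -7.17).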

How the data were processed

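The authors aligned paired reads to mm9 with bowtie2, kept proper pairs by mapping quality with samtools and called ATAC-seq peaks with MACS at default settings. The submitters' processing notes name FastQC 0.10.1, Trim Galore 0.6.3, Bowtie2 2.3.5 and SAMtools 1.10. How the replicates were combined, and whether duplicates, the Tn5 offset or blacklisted regions were handled, is not given in the sources used here. These steps set how many weak peaks a list holds and shift peak edges by a few bases. The deposited values are peak starts and ends in lists of 4 columns with no score or signal, so the length of a list is all that is known of its depth. No column of per-sample values was left unused (0).

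Regions were merged and compared with the GENCODE M1 annotation of NCBIM37, the same assembly as mm9, with coordinates counted from 1. The members and gene lists were chosen with earlier results of these data known. Of the listed symbols, 10 were not in the annotation. Named were the 10 widest regions, up to 6 genes per list with the widest regions, genes with 3 or more regions, those beside the distance limit and list members with a motif match. Bdnf was named after its values were seen, and some genes that the rule names are not reported here. Shares carry Wilson, medians order-statistic and differences of shares Newcombe intervals. Alternatives changed overlap, distance, starts, list length, width and window, and for motifs the letters. Comparisons of motif and CpG-rich differences under other settings were added after seeing the data. Python 3.11.15 with numpy 2.4.6, pandas 2.3.3 and scipy 1.17.1 was used, and 5 steps were tested on simulated data, including merging against bedtools 2.31.1.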

Additional observations from a re-analysis of the deposited data

How the results depend on the processing

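No paired analysis was possible because each state has a single peak list, so leaving out a replicate was not possible either. The count of 2309 promoters became 1414 when lists were limited to their 28965 widest peaks and 1368 with EPSC peaks of 300 bp or more, and the 2329 genes were 1471 and 1428. It rose to 3034 (3187 genes) with the widest 50% of each list, 2914 within 2500 bp and 2852 with starts of all transcripts. All 1471 were among the 2329. Genes without an ESC peak at any start numbered 1225 with the widest peaks. The count of each gene list was taken again within 500 bp, within 2500 bp and for genes with no ESC peak at any start. Of these counts 73 stayed near the main count and 20 moved further. The promoter share of regions in both EPSC lists only, 19.2%, was 19.9% with 100 bp of overlap, 16.9% and 24.2% within 500 and 2500 bp, 23.7% with starts of all transcripts, 47.5% with the widest 50% of each list, 35.2% with the widest 28965 peaks and 35.2% with EPSC peaks of 300 bp or more. GC content was 64.1% over whole regions, above the 63.1% of promoters of all 3 lists, and 66.0% in 200 bp, below their 67.0%. The CG ratio was 0.700 and 0.745, below their 0.762 and 0.839. With the widest peaks 73.8% were CpG-rich, and median widths were 777.5 bp merged, 665.5 bp for D-EPSC and 548 bp for L-EPSC peaks. Promoters with any of the 19 motifs, 93.3%, were 95.6% over whole regions, 99.3% in 1000 bp, 90.9% with reversed letters and 94.3% with the widest peaks. The difference for the AP-2 motif GCCNNNGGC changed from 0.0372 to -2.59 points in 1000 bp, 4.77 with the widest peaks and 5.43 in CpG-rich regions, and the cause was not tested. The unknown depth of each list limits every statement that ESCs lacked a peak to peaks called at that depth.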

Other observations

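Chromosomes differed in how many of their open promoters belonged to the set. The share was lowest on chromosome 8, at 72 of 794 promoter regions (9.07%, 95% interval 7.26 to 11.3), and highest on chromosome 17, at 139 of 690 (20.1%, 17.3 to 23.3), compared with 15.5% over all chromosomes. Chromosome 8 held 3.12% of the promoters found in both EPSC lists only (2.48 to 3.91) and 6.05% of those with peaks in all 3 lists. The share was low in promoters of D-EPSCs only too, at 4.04% (3.08 to 5.27), and was 5.07% (3.48 to 7.32) in those of L-EPSCs only. All peaks showed no such gap, since chromosome 8 held 7.40% of the ESC list, 7.38% of the D-EPSC list and 7.58% of the L-EPSC list. The chromosomes were singled out after their values were seen, and the cause was not tested.

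A TATA box, TATAAA between 40 and 20 bp upstream of the start, was found in 1.08% of promoters of both EPSC lists only and in 0.711% of those of all 3 lists. The share was 1.66% in promoters of D-EPSCs only and 2.34% in those of L-EPSCs only.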
